A study of Mus musculus with 39 samples.

Results

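The latest replicating late domains were described in R1 cells, a wild-type line of mouse embryonic stem (ES) cells derived from the inner cell mass and grown with serum and leukemia inhibitory factor. The members were chosen by their replication timing (RT) value alone. Of 1617 RT domains on the 19 autosomes, 849 had a value below 0 and counted as late, and the 213 domains at or below the 25th percentile of these values, a limit of -0.876, formed the latest group. The members covered 414 Mb, or 16.8% of the length of the autosomes. The other late domains were divided at the 50th and 75th percentiles (-0.724 and -0.488) into a 2nd, a 3rd and a 4th group of 212 domains each. Of the 768 early domains, the 750 with at least 50% of assembled bases were used for comparison.

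An RT value is the log2 ratio of newly made DNA in early S phase (fractions S1 and S2) to that in late S phase (S3 and S4), so that a lower value stands for later replication. Cells were pulse labelled with the thymidine analogue BrdU and sorted by DNA content, and the labels list 8 libraries, for 4 fractions and 2 replicates. Nucleosome wrapping was measured by H3-wrapping-seq in 4 libraries of 2 experiments of the same line, from the lengths of the DNA fragments that histone H3 nucleosomes protect from the nuclease MNase. Nucleosome wrapping domains (NRDs) with a positive score are tight (TiNRDs, longer fragments) and those with a negative score are loose (LoNRDs, shorter fragments). The score is a z-score without a unit, and the wrapping score of an RT domain below is the mean of the scores of its NRDs, weighted by the bases they cover. Each list is a single call without replicate values or read numbers, so that the depth behind the value of a single domain is unknown. Variation is therefore given over domains and over chromosomes, and no test was made, since domains are not replicates.

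During S phase the genome is copied in a fixed order. Gene-rich, active chromatin in the interior of the nucleus is copied early, and gene-poor chromatin, which is often attached to the nuclear lamina, is copied late. In ES cells, late regions typically hold long genes of the nervous system and clusters of sensory receptor genes. They are also rich in A/T bases, as most gene-poor mammalian DNA is.

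The sequence at the centre of the latest domains gives a view of this DNA. Shown are the 200 bases of the plus strand of GRCm38 (mm10) at the midpoint of the members with the 2nd to the 4th lowest RT value, with CpG dinucleotides in capitals:
chr11:42774901-42775100: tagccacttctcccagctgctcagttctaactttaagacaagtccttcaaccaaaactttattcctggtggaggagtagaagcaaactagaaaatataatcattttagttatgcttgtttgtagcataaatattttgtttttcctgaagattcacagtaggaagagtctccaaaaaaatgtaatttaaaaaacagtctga
chr3:128474901-128475100: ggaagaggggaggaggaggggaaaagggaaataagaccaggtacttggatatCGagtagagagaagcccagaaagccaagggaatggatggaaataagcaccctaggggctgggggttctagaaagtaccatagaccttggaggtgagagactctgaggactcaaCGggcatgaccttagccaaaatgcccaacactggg
chr7:69324901-69325100: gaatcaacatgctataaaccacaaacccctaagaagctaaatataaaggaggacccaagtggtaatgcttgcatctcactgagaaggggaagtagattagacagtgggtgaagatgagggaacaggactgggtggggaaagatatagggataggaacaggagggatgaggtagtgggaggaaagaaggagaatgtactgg
None of these 3 windows lay in a protein-coding gene. They held 0, 2 and 0 CpG dinucleotides and 66.5%, 48.0% and 54.0% A/T. For comparison, these are the midpoints of the 3 autosomal domains with the highest RT value:
chr19:5499901-5500100: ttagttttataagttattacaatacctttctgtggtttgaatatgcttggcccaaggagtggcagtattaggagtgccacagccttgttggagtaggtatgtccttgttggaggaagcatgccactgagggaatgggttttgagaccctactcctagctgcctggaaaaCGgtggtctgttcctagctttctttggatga
chr10:127924901-127925100: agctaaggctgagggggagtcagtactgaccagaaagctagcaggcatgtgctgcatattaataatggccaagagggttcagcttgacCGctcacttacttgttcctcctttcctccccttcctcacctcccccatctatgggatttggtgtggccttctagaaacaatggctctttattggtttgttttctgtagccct
chr11:96499901-96500100: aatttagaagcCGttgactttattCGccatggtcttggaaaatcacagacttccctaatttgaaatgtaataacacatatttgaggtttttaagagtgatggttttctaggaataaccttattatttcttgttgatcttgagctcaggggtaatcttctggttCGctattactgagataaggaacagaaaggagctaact
The first of them lay in Snx32 and the third in Skap1, and they held 1, 1 and 3 CpG dinucleotides with 54.5%, 51.0% and 64.5% A/T. Single windows of this size overlapped in base composition between the late and the early domains shown. Over their whole length, the 3 late domains shown had 61.1%, 60.4% and 60.2% A/T and the 3 early ones had 51.6%, 53.5% and 52.6%. The groups themselves overlapped, with 54.0% to 63.6% A/T in single members and 49.2% to 64.3% in single early domains. The 3 late domains shown held 4, 1 and 1 starts of protein-coding genes, and the 3 early ones held 183, 110 and 151.

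The RT values of the members ran from -1.27 to -0.876, with a median of -0.970. The member with the lowest value was chr18:40450001-41950000, with -1.27. No protein-coding gene started in it, while Kctd16, which encodes an auxiliary subunit of GABA-B receptors, and Prelid2 reached into it from outside. Next came chr11:42200001-43350000 with a value of -1.26. It held Gabrb2 and Gabra6, which encode subunits of the GABA-A receptor, the channel of fast inhibition in the brain, as well as Atp10b and Gm9972. The other 3 of the 5 lowest were chr3:127850001-129100000 with -1.22, chr7:68500001-70150000 with -1.21 and chr3:142900001-144200000 with -1.20. Their gene content was low as well, with only Fam241a in the first, Arrdc4 in the second and no gene start in the last, into which Lmo4 reached. All of these 5 domains were mostly in LoNRDs, with 96.7%, 87.0%, 80.0%, 81.8% and 76.9% of their length in this order. The limit of the group fell within a continuous range of values. Just inside it were chr8:48350001-51100000 with -0.87628 and chr6:147250001-148150000 with -0.87692, and just outside it were chr19:31250001-31950000 with -0.87626 and chr2:98100001-100600000 with -0.87534. Wrapping did not follow this order, since the scores of the 2 domains inside were -0.88 and 0.56 and those of the 2 outside were -0.51 and -1.20.

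**Figure D1:**
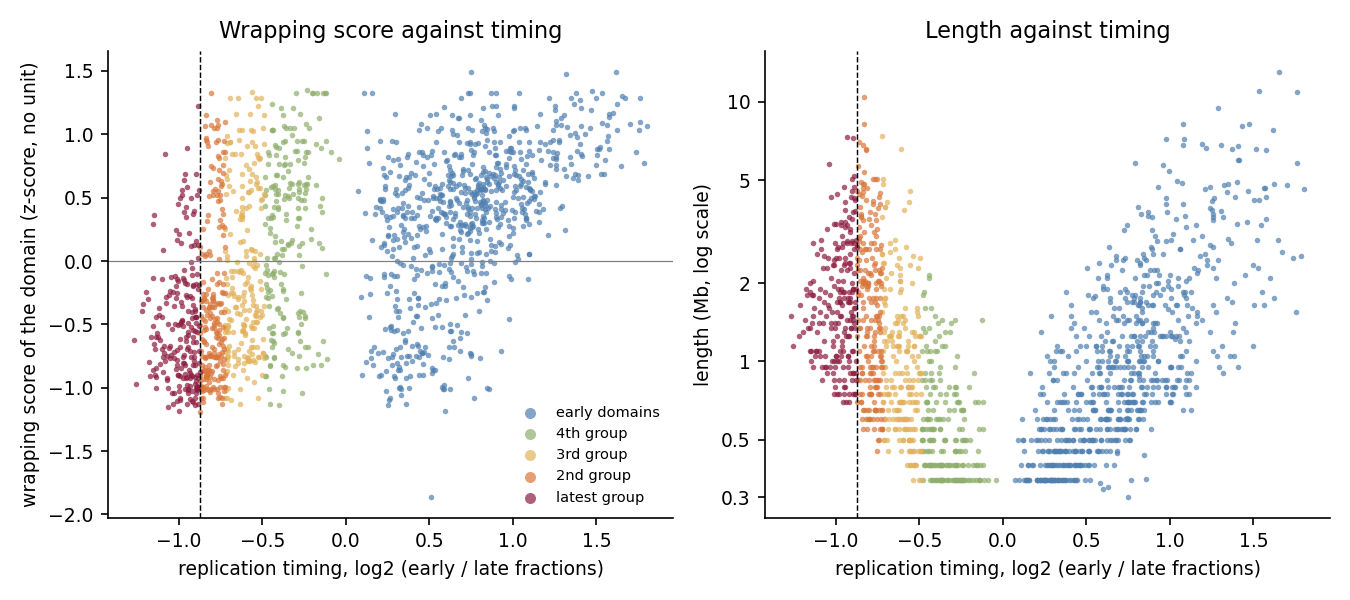
Each point is 1 autosomal RT domain, with the RT value on the x axis (log2 of early over late fractions) and, on the y axis, the wrapping score (left, z-score) or the length (right, Mb on a log scale). The dashed line is the limit of the latest group at -0.876. Members (dark red) lie mostly below a score of 0, and none is shorter than 700 kb.

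The members were long domains. Their median length was 1650 kb (quartiles 1100 and 2450 kb), and they ran from 700 to 7350 kb. The 2nd group had nearly the same median, 1575 kb, whereas the medians of the 3rd and 4th groups were 850 and 500 kb and that of the early domains was 900 kb. The median of the members exceeded that of all other late domains on 19 of 19 chromosomes, but that of the 2nd group on only 10 of 19. No member came from the 117 late domains shorter than 500 kb or from the 128 between 500 and 700 kb. From 700 to 1000 kb 34 of 156 late domains were members (21.8%), from 1000 to 2000 kb 107 of 253 (42.3%), from 2000 to 3000 kb 42 of 110 (38.2%) and from 3000 kb on 30 of 85 (35.3%). Within the members, length and RT value were weakly related, with Pearson's r = 0.21 over 213 domains. The median length was 1500 kb in the 54 members with the lowest values and 1850 kb in the 53 with the highest. Over all 849 late domains the sign was opposite, with r = -0.43.

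The 5 longest members each held from 1 to 9 starts of protein-coding genes. The longest, chr14:91600001-98950000 (7350 kb), contained Pcdh9, which encodes a protocadherin, Klhl1, Dach1, which encodes a transcriptional regulator of development, and 4921530L21Rik. In chr1:110900001-118150000 (7250 kb) there were 9 gene starts, among them Cntnap5a, a member of the neurexin-like family of adhesion genes, Cdh19, Gm28363, Gm28360 and B020011L13Rik. The 5750 kb of chr5:54050001-59800000 held the start of 1 protein-coding gene, the protocadherin gene Pcdh7. The 5200 kb of chr18:85150001-90350000 held 7, including Dok6, Socs6, Rttn, Neto1 and Cd226. The last of them, chr16:73100001-78150000 (5050 kb), held 8, including the axon guidance receptor gene Robo2, Samsn1, Usp25, Nrip1 and Lipi. All of these 5 were loosely wrapped, with LoNRD shares from 94.1% to 100% and wrapping scores from -1.09 to -0.92.

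Every autosome had members. Chromosome 3 had the most, 25 of its 60 late domains, followed by chromosome 2 with 20 and chromosome 1 with 19. By length, members took 30.7% of chromosome 16 and 30.5% of chromosome 3, but 7.03% of chromosome 4. On the RT list a member usually had an early domain beside it. Of the 426 sides of members, 313 (73.5%) were next to an early domain and 77 (18.1%) next to another late domain. The neighbour was a second member on 36 sides (8.45%). An early domain lay on both sides of 114 members (53.5%). Of the sides next to an early domain, 299 touched it without a gap. The early neighbours had a median RT value of 0.64 and a median length of 750 kb. Neighbours were counted for the members only, so that these shares cannot be called particular to the latest group.

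Most of the DNA of the members lay in loose domains. LoNRDs covered 85.8% of their length (355 Mb), TiNRDs 13.7% and no NRD 0.495%. The share of LoNRDs was lower in each of the other groups, with 81.7% in the 2nd, 67.8% in the 3rd and 42.8% in the 4th, and was 12.01% in the early domains. Over single chromosomes the share of the members ran from 61.7% on chromosome 9 to 96.7% on chromosome 16, with an SD of 10.3 percentage points (n = 19). It was higher than in all other late domains of the same chromosome on 16 of 19 chromosomes, and higher than in the early domains on 19 of 19. Against the 2nd group alone it was higher on 11 of 19, so that these 2 groups differed by less than the spread between chromosomes. The wrapping scores gave the same order. The mean over bases was -0.61 for the members, -0.56, -0.23 and 0.15 for the 2nd to the 4th group, and 0.63 for the early domains. By single domains the members had a median score of -0.60 with quartiles of -0.89 and -0.24.

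Counted by domains, 185 of the 213 members (86.9%) had at least 50% of their length in LoNRDs, compared with 45.8% of all 1599 autosomal domains compared. The corresponding shares were 76.9%, 65.1% and 41.5% in the 2nd to the 4th group and 21.2% in the early domains. With at least 80% of the length, 153 members (71.8%) remained, compared with 34.6% of all domains. A LoNRD covered the whole of 77 members, 12 members held none, and 9 were entirely TiNRD. Within the members, the RT value did not order the wrapping. The 54 members with the lowest values (-1.27 to -1.04) had 89.4% of their length in LoNRDs and a mean score of -0.62, and the 53 with the highest (-0.917 to -0.876) had 86.3% and -0.65. Pearson's r between the RT value and the wrapping score was 0.06 over the 213 members and 0.42 over all 849 late domains, a description over domains of the same libraries.

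**Figure D2:**
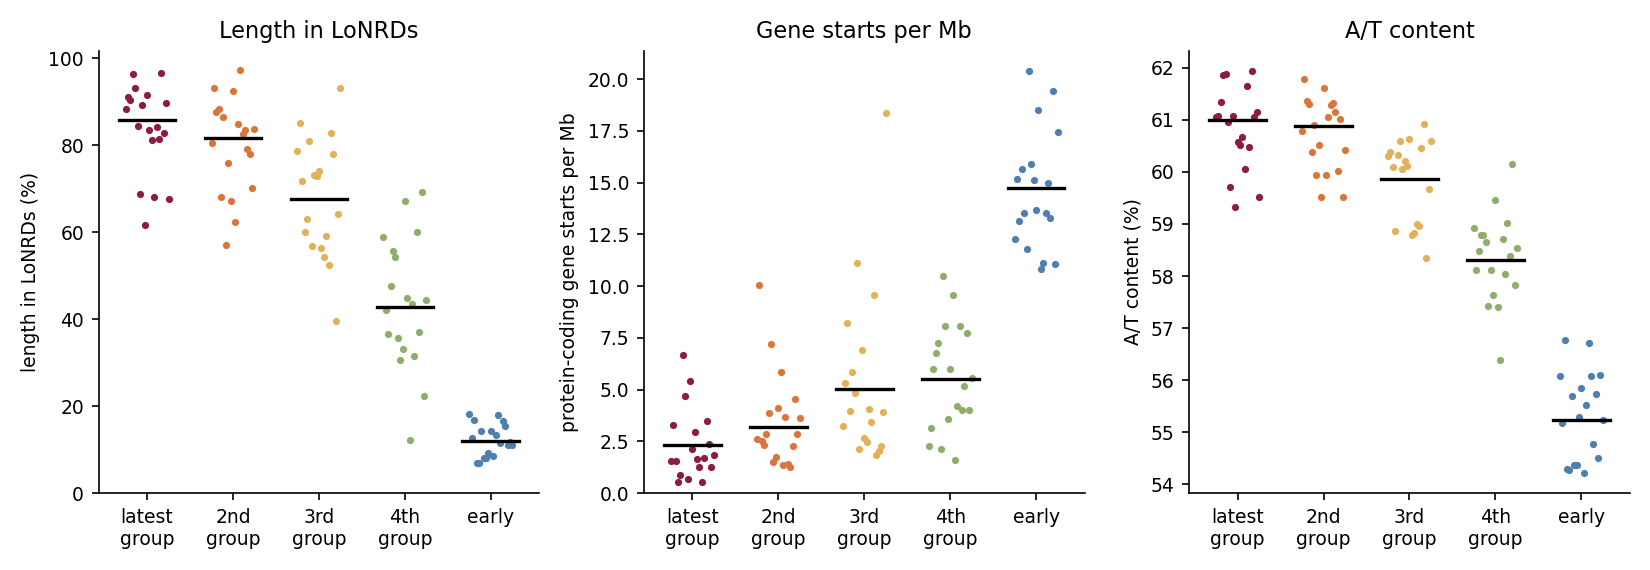
Each point is 1 of the 19 autosomes, placed by the share of length in LoNRDs (left, %), the starts of protein-coding genes per Mb (middle) and the A/T content (right, %; this axis does not start at 0) of the latest group, the other groups of late domains and the early domains. Black bars are the values over all domains of a group, and for LoNRDs they descend from 85.8% in the latest group to 12.01% in the early domains.

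Longer domains had more LoNRD, and the comparison was therefore repeated within classes of length. From 700 to 1000 kb the members had 70.98% of their length in LoNRDs and the other late domains 55.2%. From 1000 to 2000 kb the shares were 81.0% and 65.0%, and from 2000 to 3000 kb 88.6% and 83.4%. From 3000 kb on they were 92.8% and 89.1%. The members were higher than these in all 4 classes, with a wider gap in the shorter ones. The 2nd group alone had 63.8%, 73.5%, 81.3% and 92.2%, so that from 3000 kb on it was close to the members. The LoNRD share was also higher in the interior of the members than at their borders. The outer 200 kb on each side were 66.0% LoNRD, the next zone up to 500 kb from the border 84.6%, and the DNA farther inside 94.7%. In the 200 kb outside the borders LoNRDs took 45.3%. The 2nd group had 60.0%, 75.4% and 92.2% in the same 3 zones and 44.9% outside.

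**Figure D3:**
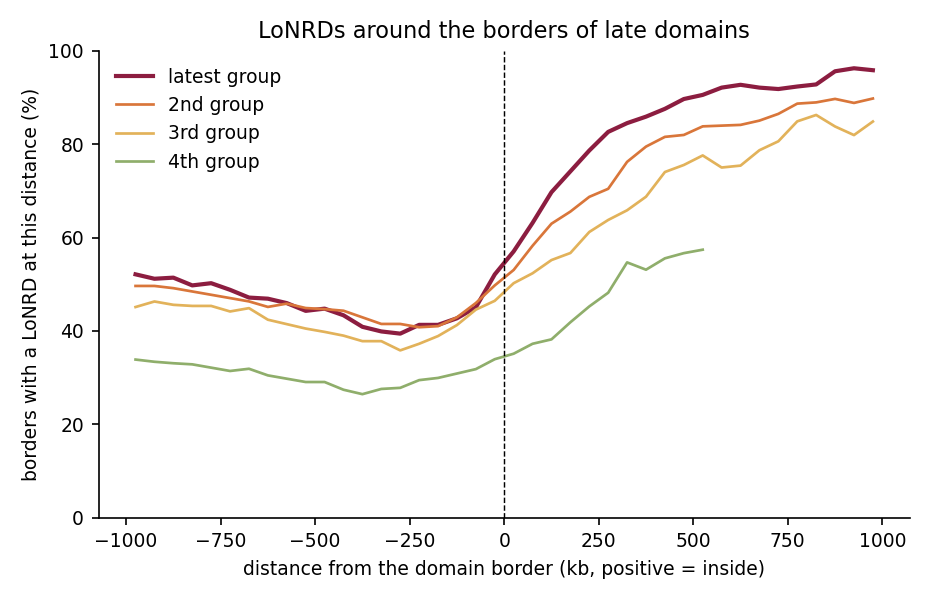
The x axis gives the distance from the border of a late domain in kb (positive inside, up to the middle of the domain) and the y axis the share of borders with a LoNRD at that distance, in steps of 50 kb, where at least 50 borders reach. In the latest group the share was 57.0% of 426 borders at 25 kb inside and 95.8% of 144 borders at 975 kb inside, so that only the longer members enter at the right.

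The loose domains that held the members were large. The midpoint of 193 members lay in a LoNRD, that of 19 in a TiNRD and that of 1 in no NRD. These were 164 different LoNRDs, 31.2% of the 525 on the autosomes. Of these, 140 held 1 member and 24 held at least 2, which together accounted for 53 members, so that these members share a LoNRD with another. The LoNRDs with a member had a median length of 2200 kb and a median score of -0.67, and the other 361 had 800 kb and -0.36. A long LoNRD is more likely to contain any midpoint, so that the difference in length follows in part from this assignment. The midpoints of the other late domains were not assigned for comparison. Among LoNRDs of at least 2000 kb the scores were close, with a median of -0.82 for the 93 with a member and -0.80 for the 74 without. The largest number of members in 1 LoNRD was 3, which was found in 5 LoNRDs.

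A minority of the latest domains was tightly wrapped. At least 50% of the length lay in TiNRDs in 28 members (13.1%), compared with 54.8% of all autosomal domains. The share was 23.1%, 36.8% and 58.5% in the 2nd to the 4th group and 79.7% in the early domains. The 28 members covered 37.0 Mb on 13 chromosomes, with a median score of 0.44 and a range from -0.05 to 1.22. Their RT values spanned nearly the whole range of the group, from -1.16 to -0.877, with a median of -0.956, while the 77 members entirely in LoNRDs had a median of -0.953. They were shorter than the latter, with medians of 1125 and 1700 kb. The longest was chr13:69800001-73150000 (3350 kb, score 0.64), which lay entirely in 1 TiNRD and held Adamts16, Ice1, Med10 and the developmental transcription factor genes Irx1 and Irx2. No gene started in chr14:22100001-24000000 (score 0.39), into which Lrmda and the potassium channel gene Kcnma1 reached. In chr7:123600001-125450000 (score 0.59) were Hs3st4 and Kdm8. Entirely in a TiNRD lay chr9:116500001-118250000 (score 0.89) with Rbms3, Cmc1 and Azi2.

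The wrapping score of the members varied with their A/T content. The 77 members entirely in LoNRDs had a median A/T content of 62.04% (59.4% to 63.6%), the 108 others that were mostly LoNRD 60.2%, and the 28 mostly in TiNRDs 57.8% (54.0% to 60.9%). Pearson's r between A/T content and wrapping score was -0.92 over the 213 members and -0.91 over all late domains. As a whole the members had 61.0% A/T, the 2nd group 60.9%, the 3rd 59.9%, the 4th 58.3% and the early domains 55.2%. On single chromosomes the value of the members ran from 59.3% to 61.9%, above all other late domains on 15 of 19 but above the 2nd group on 10 of 19. Members and other late domains were also compared within classes of A/T content. From 60% to 62% A/T the LoNRD share was 94.1% and 92.2%, and above 62% it was 98.8% and 97.9%. The shares were farther apart in the classes with less A/T. Between 58% and 60% it was 69.6% and 60.1%, and below 58% it was 22.2% of the length of 20 members and 6.44% of that of 190 other late domains. In the 2nd group alone the shares were 8.55%, 62.9%, 92.3% and 98.2% from the lowest to the highest A/T class. From 60% to 62% A/T the mean score over bases was -0.70 both in the members and in the 2nd group. The part of base composition in the wrapping score was not tested.

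**Figure D4:**
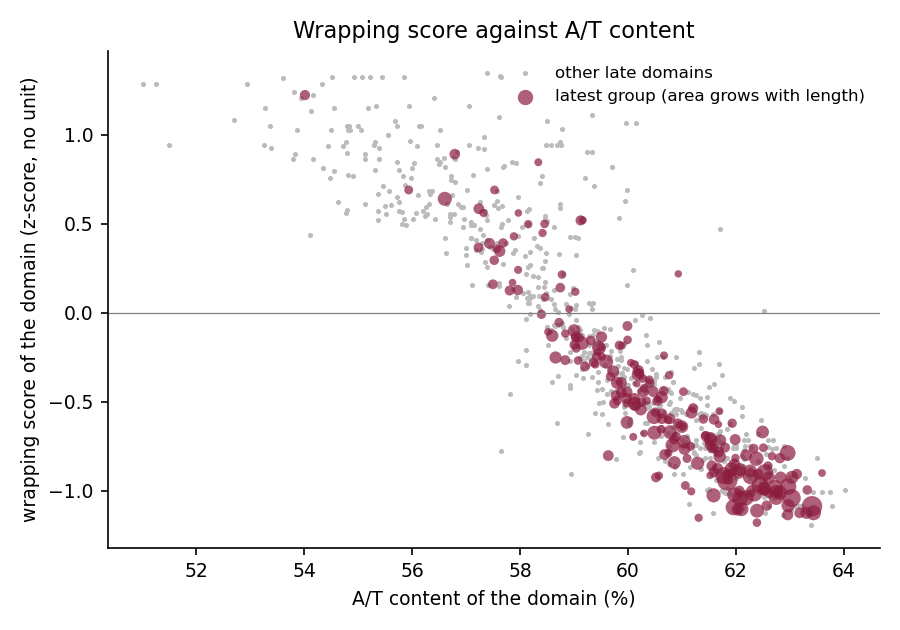
Each point is 1 late domain, with its A/T content on the x axis (%) and its wrapping score on the y axis (z-score). Members are dark red with an area that grows with their length, and the other late domains are grey. The members follow the same downward band as the other late domains, from 1.22 at 54.0% A/T to about -1 above 62%.

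The members were poor in genes. In the GENCODE annotation 954 protein-coding genes started in them, or 2.31 per Mb, compared with 3.20, 5.03 and 5.54 per Mb in the 2nd to the 4th group and 14.7 in the early domains. The density was lower than in the other late domains on 15 of 19 chromosomes and lower than in the early domains on 19 of 19. It ran from 0.545 per Mb on chromosome 4 to 6.69 on chromosome 6. Against the 2nd group it was lower on 14 of 19. The median member held 2 gene starts, 47 members held 1 and 30 held none (14.1%, compared with 9.63% of all domains). Domains without a gene start were about as frequent among the other late domains, with 9.91%, 17.9% and 20.3% in the 2nd to the 4th group, and made up 2.93% of the early domains. Protein-coding genes covered 24.6% of the length of the members, 27.9% of the 2nd group and 55.0% of the early domains. Over the 213 members, gene density and wrapping score had a Pearson's r of 0.08 and a Spearman's rho of 0.38, a description over domains with very uneven gene numbers.

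Among the genes of the members were 2 contrasting kinds. One was very long genes. Of the 218 autosomal protein-coding genes of at least 500 kb, 50 (22.9%) started in a member, compared with 4.59% of all 20807 protein-coding genes. The 2nd group held another 59 of them. The 10 longest were Lsamp (2197 kb), Macrod2 (1998 kb), Csmd1 (1643 kb), Lrrc4c (1314 kb), Tenm2 (1229 kb), Galntl6 (1139 kb), Kcnip4 (1135 kb), Nrg3 (1104 kb), Dcc (1097 kb) and Rbms3 (1057 kb). Most of these act in neurons. Lsamp, Lrrc4c and Tenm2 encode adhesion molecules of neuronal membranes and synapses, Kcnip4 a protein that modulates potassium channels, Nrg3 a growth factor of the neuregulin family and Dcc the netrin receptor of growing axons. Their domains were loosely wrapped with scores from -1.10 to -0.20, except the domain of Rbms3, which encodes an RNA-binding protein, with 0.89.

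The other kind was tandem arrays of receptor genes. Of 1128 olfactory receptor genes, 197 (17.5%) started in members, all in 9 domains, and 350 more in the 2nd group. The richest members were chr2:85150001-86150000 with 38 olfactory receptor genes, chr9:38950001-39950000 with 35, chr7:104450001-105500000 with 34 and chr2:86500001-87300000 with 32. Among their longest genes were Olfr1033 in the first, Olfr943, Olfr945 and Olfr27 in the second, Olfr657 in the third and Olfr1087 in the last. The wrapping scores of these 4 domains were -0.82, -0.81, -0.15 and -0.90. With 44 gene starts in 1050 kb the chromosome 7 domain was the most gene-rich member, and it also held Trim30a, Trim30d, Cckbr and Fam160a2. Of the vomeronasal type 1 receptor genes, which detect pheromones, 25 of 207 (12.1%) started in members. Of these, 24 lay in chr6:57000001-58450000, among them Vmn1r18, Vmn1r28, Vmn1r13 and Vmn1r16. More of this family lay in other late domains, with 20, 70 and 47 in the 2nd to the 4th group. Of 119 vomeronasal type 2 receptor genes 4 (3.36%) started in members, below the 4.59% of all protein-coding genes. They were Vmn2r7, Vmn2r6 and Vmn2r5 on chromosome 3 and Vmn2r120 on chromosome 17. The 2nd to the 4th group held 41, 39 and 4 of the type 2 genes. Without these 3 receptor families the density of the members was 1.76 gene starts per Mb, and it was 2.26 in the 2nd group and 14.4 in the early domains. Other arrays lay in members too. In chr16:87700001-89750000 41 genes started, among them the hair keratin-associated genes Krtap15, Krtap14 and Krtap24-1, the tight junction gene Cldn8 and the kainate receptor gene Grik1. In chr6:40450001-41550000 (RT value -0.903, score -0.38) lay 21 variable and 13 joining segments of the T cell receptor beta locus, an array singled out after the annotation of the members was seen.

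Genes of neuronal signalling were compared by lists of symbols. Of 64 genes of synaptic and neuronal adhesion, 13 (20.3%) started in members, among them Lsamp, Csmd1, Tenm2 and Nlgn1, which encodes a postsynaptic partner of neurexins. Another 23 started in the 2nd group. Of 66 axon guidance genes 12 (18.2%) did, among them the receptor genes Dcc, Epha6 and Unc5d and the semaphorin gene Sema6d. The axon guidance genes were otherwise mostly early, with 44 of 66 in early domains. Of 43 genes of glutamate and GABA receptors 9 (20.9%) started in 5 members, among them Grm7, Gabrb1, Grik1 and Gria1, the latter in a domain with a positive score of 0.30. Of 91 genes on the potassium channel list 14 (15.4%) started in members and 58 in early domains. The longest of the 14 were Kcnip4, which encodes a modulator of these channels, Kcnq5, Kcnd2 and Kcnb2. None of 23 alpha subunit genes of sodium and calcium channels started in members. Cadherin and protocadherin genes were close to the background of all genes, with 5 of 90 (5.56%), among them Pcdh9, Pcdh7, Cdh19 and Pcdh10.

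Other families had few or no genes in the members, to be read against the 4.59% of all protein-coding genes that started there. Of 385 Zfp zinc finger genes 4 (1.04%) started there, namely Zfp804a, Zfp735, Zfp616 and Zfp330, and 344 started in early domains. Of 60 serpin genes, which encode protease inhibitors, 2 did (3.33%), Serpini1 and Serpini2, near the share of all genes, and 40 lay in the 3rd group. No gene start was found in members for 94 cytochrome P450 genes, 53 keratin genes, 64 defensin genes, 76 genes of cytosolic ribosomal proteins, 67 replication-dependent histone genes, 39 Hox genes and 19 core pluripotency genes. All 39 Hox genes and all 19 pluripotency genes started in early domains, while of the defensin genes 24 started in early domains, 6 in the 3rd group and 32 in the 4th. At the share of all genes, lists as short as these would hold few genes in members. The lists differ in size and their genes are clustered, so that the shares were given without a test.

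**Figure D5:**
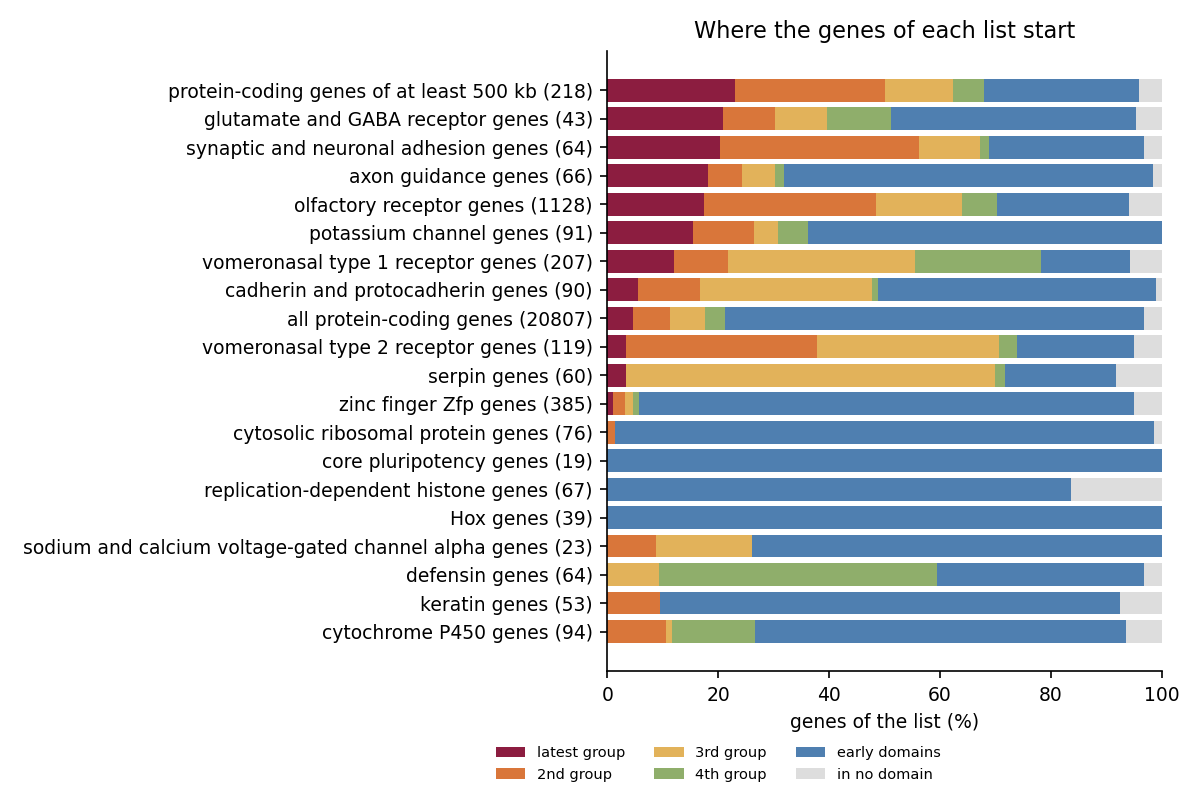
Each bar is a list of protein-coding genes (number of genes in parentheses), divided by where they start, in % of the list. The latest group is dark red at the left, and lists are ordered by its share, which was 22.9% for genes of at least 500 kb, 17.5% for olfactory receptor genes and 4.59% for all protein-coding genes.

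The DNA before the gene starts was compared by its CpG content. In the 250 bases upstream of each annotated gene start CpG dinucleotides (CG, which reads the same on both strands) were counted. The 954 genes of the members had a median of 3 CpGs, and 24.2% of them had at least 10, compared with 22.9%, 20.2% and 24.2% in the 2nd to the 4th group, 54.6% in early domains and 47.2% of all genes with sequence. The share of the members was thus close to that of the other late domains. The 226 receptor genes of the 3 families in members had a median of 1 and none had 10 or more. The 50 genes of at least 500 kb in members had a median of 9.5, and 25 of them (50.0%) had at least 10. This share was close to the 47.2% of all genes. The same count was not made for genes of this length in the other groups. The 25 genes of the adhesion and axon guidance lists in members had a median of 14, and 17 of them (68.0%) had at least 10. In early domains 69.4% of 62 genes of these 2 lists did. Both kinds of upstream sequence occurred in members. Shown for the longest gene of the adhesion and olfactory lists are the 250 bases up to the base before the start, on the plus strand and in the direction of transcription, with CpGs in capitals. Lsamp, chr16:39984111-39984360, has 12 CpGs and 46.8% A/T. Olfr943, chr9:39166054-39166303, has 3 CpGs and 65.6% A/T:
Lsamp: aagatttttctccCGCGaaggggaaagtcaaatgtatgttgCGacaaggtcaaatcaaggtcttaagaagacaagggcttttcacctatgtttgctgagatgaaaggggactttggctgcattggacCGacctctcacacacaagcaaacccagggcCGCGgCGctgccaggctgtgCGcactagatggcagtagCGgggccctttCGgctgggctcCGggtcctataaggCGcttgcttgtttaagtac
Olfr943: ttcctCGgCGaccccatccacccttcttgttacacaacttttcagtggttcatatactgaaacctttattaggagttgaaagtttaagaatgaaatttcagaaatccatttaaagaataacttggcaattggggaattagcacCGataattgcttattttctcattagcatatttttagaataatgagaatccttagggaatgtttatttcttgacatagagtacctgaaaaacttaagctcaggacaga
Both genes lay in loosely wrapped members, with scores of -1.03 and -0.81.

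The members also held genes of microRNAs, short RNAs that repress messenger RNAs by pairing through their seed. Of 2054 annotated autosomal miRNA genes 136 (6.62%) started in members, 194 in the 2nd group and 1485 in the early domains. Among 48 of the members with a Mir symbol, 13 lay within 100 kb of another in 6 groups. The same count was not made outside the members, so that no excess of such groups is claimed. In 4 of these groups 2 genes share a seed, and these mature sequences (RefSeq, GRCm38) are shown with the seed, bases 2 to 8, in capitals, since they are copies that lie side by side in the same member:
mmu-miR-30a-5p: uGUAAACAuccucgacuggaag
mmu-miR-30c-5p: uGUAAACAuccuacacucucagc
mmu-miR-181a-5p: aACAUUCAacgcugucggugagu
mmu-miR-181b-5p: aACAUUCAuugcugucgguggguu
mmu-miR-29b-3p: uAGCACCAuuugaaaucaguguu
mmu-miR-29c-3p: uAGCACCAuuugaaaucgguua
mmu-miR-34b-3p: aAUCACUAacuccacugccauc
mmu-miR-34c-3p: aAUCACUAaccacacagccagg
The pairs Mir30a and Mir30c-2, Mir181a-1 and Mir181b-1, and Mir29b-2 and Mir29c lay on chromosome 1 in members with scores of -0.49, -0.93 and -0.27. Mir34b and Mir34c, which p53 activates, lay on chromosome 9 in a member with a score of 0.24. They were so near its border that their place inside it is uncertain. The other 2 groups were Mir135a-2 with Mir1251 on chromosome 10 and Mir99a with Mirlet7c-1 and Mir125b-2 on chromosome 16, with different seeds within each group. These groups were picked after the positions of the genes were seen, and the 2 lists hold no measure of the RNAs themselves.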

How the data were processed

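The members and gene lists were chosen with earlier results of these data known. Of 39 samples, 2 deposited lists covered the 4 H3-wrapping-seq and 8 RT libraries. Per the submitters' processing notes the authors used cutadapt 4.3, Bowtie2 2.5.1 (mm10), picard, samtools and bedtools 2.30.0. The NRD list holds a score deposited by the authors, from the z-scored index in 100 kb bins, smoothed. The RT list holds a log2 value deposited by the authors, from 50 kb windows after quantile normalization. Both were called with FindHiCCompartments of homer2. Smoothing limits how closely borders can be placed, and quantile normalization fixes the spread of RT values. How a domain's value was made from its bins is not given in the sources used here.

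Overlaps were computed in Python 3.11.15 (numpy 2.4.6, pandas 2.3.3, scipy 1.17.1, matplotlib 3.10.9), tested on 200 simulated domains and checked against bedtools 2.31.1 (difference 0 Mb). Sequence came from GRCm38, in which 18 of 19 autosomes end where the last RT domain ends, and genes from GENCODE release 21 for mouse, assigned by their start. A total of 18 early domains at chromosome starts with under 50% of assembled bases were set aside, a choice made after seeing the data. Named domains were the 5 with the lowest value, the 5 longest, the 5 with most gene starts, the 5 longest mostly in TiNRDs and 2 on each side of the limit. Named genes were the 5 longest in each, the 10 longest of all and the 4 longest of each list. A domain that this rule names is not reported here. Length and A/T classes, border zones, upstream windows and miRNA groups were chosen after seeing the data. Alternatives are given in the closing section.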

Additional observations from a re-analysis of the deposited data

How the results depend on the processing

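Of 30 alternatives, 28 left the value within the SD over the 19 chromosomes or, for counts, within 1.5 times. The SD is a wide limit. The LoNRD share, wrapping score, gene density, A/T content and median length of the 2nd group lie within it as well. The number of members moved by construction, to 85 with the limit at the 10th percentile and to 425 at the 50th. Over these limits, a minimum length, chromosome X, other denominators and sequence outside repeats, the LoNRD share of the members lay between 83.7% and 88.0%. The wrapping score lay between -0.63 and -0.59 and the gene density between 1.76 and 2.77 per Mb. The A/T content lay between 60.4% and 60.9% and the median length between 1450 and 1600 kb. Both of these ranges were below the main values of 61.0% and 1650 kb. With all early domains, their LoNRD share was 11.4% in place of 12.01%, an alternative chosen after seeing the data. No paired analysis was possible because the lists carry no replicates and no test was made. Neither list gives depth or replicate values, so that the error of a single domain's value is unknown, and borders are known only to the bins of 50 and 100 kb and the smoothing.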

Other observations

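Other annotated elements thinned out less than protein-coding genes in the members, which held 640 lincRNA genes, or 1.55 per Mb, compared with 1.41, 1.63 and 2.06 per Mb in the 2nd to the 4th group and 2.85 in the early domains. Processed pseudogenes, copies of messenger RNAs inserted by retrotransposons, numbered 1170 in the members, or 2.83 per Mb, compared with 3.02, 3.77 and 3.81 in the other groups and 4.25 in the early domains. Repeats marked in the assembly took 36.3% of the bases of the members, 37.3%, 37.9% and 33.5% of those of the other groups and 29.7% of the early domains. CpG dinucleotides numbered 6.07 per kb in the members and 11.04 per kb in the early domains.

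Variable segments of antigen receptors were split between timing classes. Of 131 of the T cell receptor type in RT domains, members held 21, the 4th group 5 and the early domains 105. Of 165 of the immunoglobulin type, members held 0, the other groups 20, 103 and 16, and the early domains 26. By single members, the score was lowest, -1.18, in chr11:40950001-42000000, which held no start of a protein-coding gene and lay entirely in a LoNRD. This member was picked after its value was seen. Its score is that of the whole LoNRD, and the early domain beside it (RT value 0.59) had the same score of -1.18.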
